A study of Mus musculus with 6 samples.

Results

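The 10 genes of arginine use and polyamine metabolism were measured in cultured mouse macrophages with and without the transcription factor c-Maf: Arg1, Arg2, Nos2, Odc1, Oaz1, Srm, Sms, Sat1, Slc7a1 and Slc7a2. They were chosen by gene name, and all 17 non-control array probes that carry one of the 10 names were taken, out of 55681 non-control probes. RNA came from macrophages derived from mice that had received c-Maf KO or WT fetal liver cells, with 3 samples of each genotype. The labels call the cells polarized and M2-like BMM, read here as bone marrow macrophages, yet give liver as the tissue. The sources used here do not settle this conflict. M-CSF, the macrophage growth factor, was the cytokine of the medium in both genotypes (10 ng/ml, given daily from day 4, with 10% serum), and no IL-4 or IL-13 is named. The protocol covers suspensions of fetal liver and of bone marrow, and the strain, the age and the kind of c-Maf KO allele are not given in the sources used here. Nothing in the labels says that the samples came from separate mice, so p-values reflect only how far these samples vary, and that variation may be technical.

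Arginine is the shared substrate of 2 routes that macrophages are known for. Arginase cleaves it to ornithine and urea, and the inducible nitric oxide synthase Nos2 turns it into nitric oxide and citrulline. Ornithine feeds the polyamines: Odc1 makes putrescine, Srm makes spermidine and Sms makes spermine, while Sat1 acetylates them for breakdown and export and the antizyme Oaz1 sends Odc1 to the proteasome. Slc7a1 and Slc7a2 carry arginine into the cell. In mouse macrophages, IL-4 and IL-13 induce Arg1 through Stat6, and interferon-gamma with bacterial products induces Nos2.

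The probes are 60-base oligonucleotides, and those of Arg1, Arg2 and Srm that the results turn on, with the Odc1 probe that lies farthest upstream in its transcript, read 5′ to 3′ as follows.
Arg1 (A_51_P303160): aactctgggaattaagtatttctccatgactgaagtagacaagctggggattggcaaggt
Arg2 (A_52_P374897): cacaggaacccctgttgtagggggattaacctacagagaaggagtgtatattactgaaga
Srm (A_55_P2002376): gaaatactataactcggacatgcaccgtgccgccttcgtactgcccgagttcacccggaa
Odc1 (A_52_P436238): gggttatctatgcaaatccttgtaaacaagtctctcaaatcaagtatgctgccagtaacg
The Arg1 probe lies at chr10:24636194-24636253 on the minus strand (mm9, from base 674 of NM_007482), and the Arg2 probe at chr12:80252972-80253031 on the plus strand (from base 867 of NM_009705). The Srm probe lies at chr4:147968254-147968313 on the plus strand (from base 934 of NM_009272) and the Odc1 probe at chr12:17554799-17554858 on the plus strand (from base 729 of NM_013614). Coordinates and transcript positions are those of the array files.

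Some probes of 1 gene share sequence and are not separate measurements of it. The other 3 Odc1 probes lie within the same stretch, from chr12:17557831-17557890 to chr12:17557869-17557928 on the plus strand, and share the run of 22 bases shown in capitals in these 30-base windows.
Odc1 (A_55_P1995173): gtgaaaatAAAGTATCTTGAAATAACTGGG
Odc1 (A_55_P2035102): aaatAAAGTATCTTGAAATAACTGGGaaaa
Odc1 (A_55_P1982818): AAAGTATCTTGAAATAACTGGGcatcgggg
The 2 Oaz1 probes start at the same base (chr10:80291975-80292034 and chr10:80291975-80292035) and share 54 bases; their last 30 bases are shown, with the 6 outside the shared run in capitals.
Oaz1 (A_55_P2035454): caaatccaataaagtgatctcgttCATTGG
Oaz1 (A_55_P2171047): caaatccaataaagtgatctcgttAAAAAA
By contrast, the longest run shared by the 2 Srm probes is 6 bases and by any 2 of the 3 Sms probes 7 bases, so these probes read different stretches of their transcripts.

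The genotype was first checked on Maf itself. For the brighter of its 2 probes the log2 ratios to the median of the 6 samples were -2.22, -2.36 and -1.92 in c-Maf KO and 1.92, 1.98 and 2.03 in WT, replicates 1 to 3 in order (difference of -4.14, adjusted p = 0.000826). Every c-Maf KO sample lay far below every WT sample, as its label says; the sources used here do not say which part of the gene was deleted. Values of 2 kinds are used throughout. A level is the log2 processed intensity relative to the 75th percentile of its array, from the scanner files of c-Maf KO replicates 2 and 3 and WT replicates 1 to 3. A log2 ratio compares a sample with the median of the probe over all 6 samples, in the deposited value table, which is the source used here for c-Maf KO replicate 1. Differences are c-Maf KO minus WT on the log2 scale, tested with limma for all 28273 probes kept, first with the 5 arrays and then with the 6 samples of the value table. The 5 arrays are part of both, so the second test is no replication of the first. The 75th percentile was 411 to 495 intensity units, and each array had 48.9% to 50.5% of its probes well above background. By their file names all 5 arrays lie on 1 slide, c-Maf KO in row 2 and WT in row 1, and an effect of the row cannot be told apart from genotype. Of 10 macrophage markers 9 were measured, Cd163 was not well above background on any array, and Csf1r had levels of 9.22 and 9.11 in c-Maf KO and 9.27, 9.31 and 9.16 in WT.

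All 17 probes were well above background on all 5 arrays, none was saturated, and no member was lost to the filter. RNA came from whole cultures, so fewer cells of a type and less RNA per cell cannot be told apart. None of the 17 passed an adjusted p of 0.05 in limma, over the 5 arrays or in the value table, and 0.0248% and 0.0212% of all probes did. At an unadjusted p under 0.05 there were 3 member probes over the 5 arrays and 2 in the value table, against 10.5% and 12.1% of all probes. Of the 17 probes, 15 over the 5 arrays and 14 in the value table were less than 0.25 from 0. Over all probes 19.1% and 19.4% lay at 0.25 or beyond, so the members' share was near the background. By the brightest probe of each gene, 9 of 10 differences were positive in both fits, with medians of 0.094 over the 5 arrays and 0.13 in the value table. Over all probes 46.1% and 49.1% of differences were positive, with medians of -0.014 and -0.0038.

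**Figure D1:**
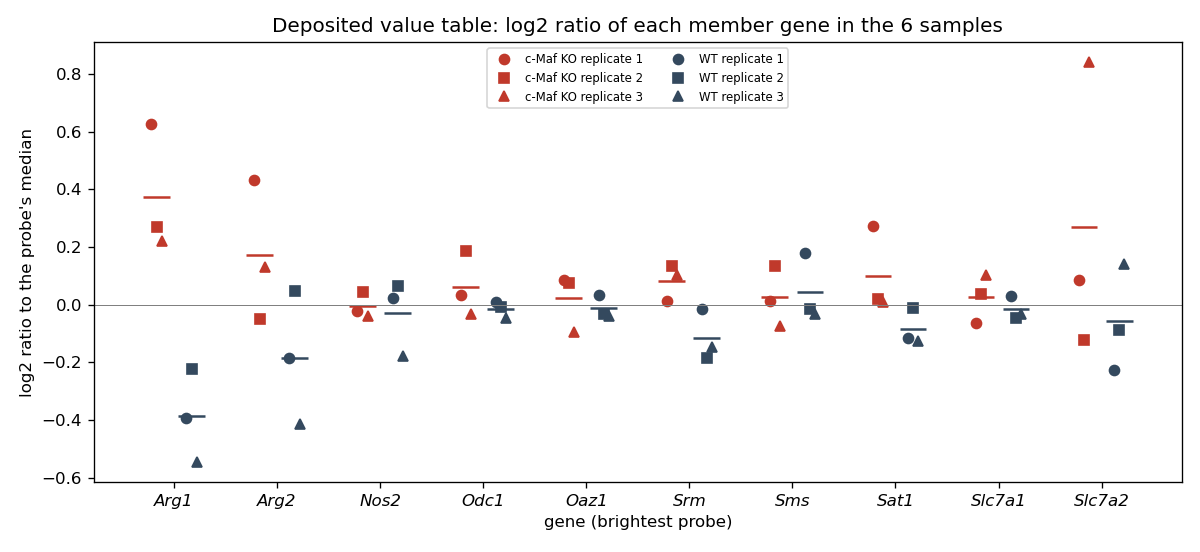
Log2 ratio to the probe's median in the deposited value table (vertical axis) for the brightest probe of each of the 10 genes, in 3 c-Maf KO and 3 WT samples; bars are group means. Arg1 shows the widest gap between the groups, the Srm and Sat1 groups lie just apart, and the other 7 genes overlap.

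Arg1, the cytosolic arginase of liver and of alternatively activated macrophages, was the member with the largest difference. Its levels were 5.45 and 5.42 in c-Maf KO replicates 2 and 3, against 4.80, 4.97 and 4.63 in WT replicates 1 to 3. Both c-Maf KO arrays lay above all 3 WT arrays, and WT replicate 2 came nearest. The processed intensities behind these levels were 19016 and 21148 units in c-Maf KO and 11680, 12905 and 11080 units in WT, on local backgrounds of 53 to 70 units. The difference over the 5 arrays was 0.63 (SE 0.12, adjusted p = 0.294), a 1.55-fold higher signal with a 95% interval of 0.33 to 0.93 on the log2 scale. The log2 ratios, replicates 1 to 3 in order, were 0.63, 0.27 and 0.22 in c-Maf KO and -0.39, -0.22 and -0.55 in WT replicates 1 to 3, or 0.37 ± 0.22 and -0.39 ± 0.16 (SD, n = 3 each). The groups were 0.44 apart, and c-Maf KO replicate 1 stood above the other two c-Maf KO samples. The difference there was 0.76 (SE 0.14, adjusted p = 0.189), or 1.69-fold, and its interval ran from 0.42 to 1.10. The difference thus exceeded the spread within both groups, but it did not pass over all probes. With a variance trend over signal and robust estimation, the adjusted p was 0.0443 over the 5 arrays, where 0.435% of all probes passed, and 0.0812 in the value table. Leaving out 1 replicate gave 0.55 to 0.72 over the 5 arrays and 0.63 to 0.84 in the value table.

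Arg2, the mitochondrial arginase, gave a dim signal and an uncertain difference. Its levels were -2.22 and -2.02 in c-Maf KO replicates 2 and 3 and -2.34, -2.11 and -2.59 in WT replicates 1 to 3, at intensities of 93.5 and 122 against 82.8, 95.4 and 74.4 units. The log2 ratios were 0.43, -0.048 and 0.13 in c-Maf KO replicates 1 to 3 and -0.18, 0.048 and -0.41 in WT replicates 1 to 3. As for Arg1, c-Maf KO replicate 1 was the highest sample and WT replicate 3 the lowest, but the groups overlapped through c-Maf KO replicate 2 and WT replicate 2. The differences were 0.22 (SE 0.16, adjusted p = 0.689) over the 5 arrays and 0.36 (SE 0.17, adjusted p = 0.464) in the value table. Over the 5 arrays it was 0.12 without c-Maf KO replicate 3, 0.10 without WT replicate 3 and 0.34 without WT replicate 2, and it was 0.23 in the value table without c-Maf KO replicate 1. With normexp background correction the difference over the 5 arrays was 0.0051, close to 0 for this dim probe. Arg1 minus Arg2, taken within each sample from the log2 ratios, was 0.19, 0.32 and 0.091 in c-Maf KO replicates 1 to 3 and -0.21, -0.27 and -0.13 in WT. These values did not overlap between the genotypes, at an exact permutation p of 0.1 (two-sided), the smallest that 3 against 3 samples allow. Arg1 by itself did not overlap either, so this contrast is no separate result.

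Nos2, the inducible nitric oxide synthase, was well above background on every array, and no difference between the genotypes was detected. Its levels were -0.56 and -0.63 in c-Maf KO replicates 2 and 3 and -0.57, -0.52 and -0.79 in WT replicates 1 to 3, each the mean of 2 spots. The log2 ratios were -0.022, 0.045 and -0.039 in c-Maf KO replicates 1 to 3 and 0.022, 0.066 and -0.18 in WT replicates 1 to 3, and all c-Maf KO samples lay within the WT range. The difference was 0.031 (SE 0.10, adjusted p = 0.940) over the 5 arrays and 0.024 (SE 0.083, adjusted p = 0.928) in the value table. Its 95% intervals, -0.24 to 0.30 and -0.18 to 0.23, both end below the Arg1 intervals. The 2 spots of this probe read 320 and 272 units in c-Maf KO replicate 2 and 284 and 281 units in WT replicate 1. Within each sample, Arg1 minus Nos2 was 0.65, 0.23 and 0.26 in c-Maf KO replicates 1 to 3 and -0.42, -0.29 and -0.37 in WT replicates 1 to 3. These values did not overlap and differed by 0.74, again at the exact permutation p of 0.1 (two-sided). With Nos2 at 0.024, this contrast largely repeats the Arg1 difference of 0.76 and is no separate result.

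**Figure D2:**
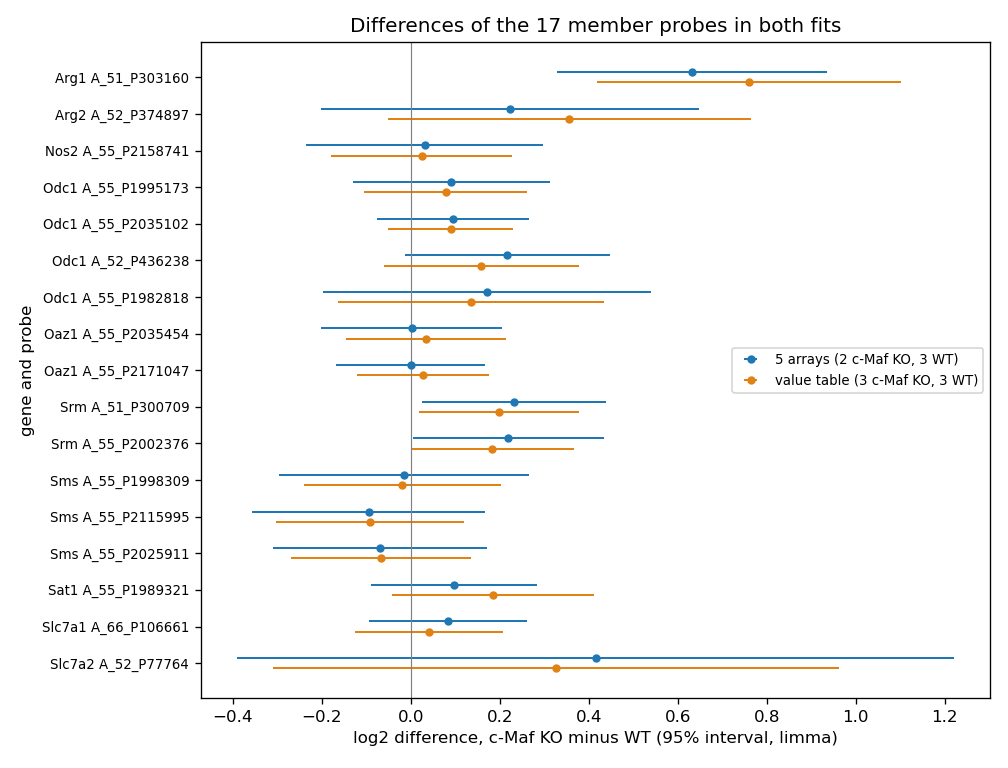
Log2 difference, c-Maf KO minus WT (horizontal axis), with its 95% limma interval for each of the 17 probes, over the 5 arrays (2 c-Maf KO, 3 WT) and in the value table (3 c-Maf KO, 3 WT). The Arg1 intervals lie farthest from 0, the Srm intervals lie at its edge, and the remaining 14 probes have intervals that include 0 in both fits.

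Odc1, the ornithine decarboxylase that opens polyamine synthesis, had 4 probes with small positive differences. The brightest had levels of 3.57 and 3.38 in c-Maf KO replicates 2 and 3 and 3.41, 3.40 and 3.34 in WT replicates 1 to 3. Its log2 ratios were 0.032, 0.18 and -0.031 in c-Maf KO and 0.0090, -0.0090 and -0.047 in WT, replicates 1 to 3 each. The groups overlapped, and the difference was 0.091 (SE 0.085, adjusted p = 0.755) over the 5 arrays and 0.078 (SE 0.075, adjusted p = 0.704) in the value table. The upstream Odc1 probe, which shares no long run with the others, measured 0.22 (SE 0.089, adjusted p = 0.493) and 0.16 (SE 0.090, adjusted p = 0.532). Its levels were 0.84 and 0.73 in c-Maf KO and 0.54, 0.68 and 0.49 in WT, while in the value table c-Maf KO replicate 1 (-0.034) lay below WT replicate 2 (0.034). The 2 further probes over the shared run measured 0.095 and 0.17 over the 5 arrays and 0.089 and 0.13 in the value table. None of the 4 passed.

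Oaz1, the antizyme that holds Odc1 in check, was bright, and no difference between the genotypes was detected. Its brighter probe had levels of 7.75 and 7.60 in c-Maf KO replicates 2 and 3 and 7.73, 7.66 and 7.64 in WT replicates 1 to 3. The log2 ratios were 0.084, 0.077 and -0.10 in c-Maf KO and 0.033, -0.033 and -0.039 in WT, with the WT samples inside the c-Maf KO range. The difference over the 5 arrays was 0.0020 with an interval of -0.20 to 0.21, and from the value table it was 0.035 with -0.14 to 0.21. The other probe, which shares 54 bases with it, had intervals of -0.17 to 0.17 and -0.12 to 0.18.

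Srm, spermidine synthase, had small positive differences at both probes. The brighter probe had levels of 2.92 and 2.91 in c-Maf KO replicates 2 and 3, against 2.79, 2.62 and 2.64 in WT replicates 1 to 3. The other had 2.15 and 2.19 in c-Maf KO and 2.06, 1.89 and 1.90 in WT. At both, WT replicate 1 was the WT sample nearest to c-Maf KO. In the value table the brighter probe had log2 ratios (replicates 1 to 3) of 0.014, 0.13 and 0.10 in the 3 c-Maf KO samples and -0.014, -0.18 and -0.15 in WT replicates 1 to 3. The groups did not overlap, but c-Maf KO replicate 1 and WT replicate 1 were only 0.027 apart, and 0.0018 at the other probe. The differences were 0.23 (SE 0.080, adjusted p = 0.452) and 0.22 (SE 0.083, adjusted p = 0.473) over the 5 arrays, or 1.17-fold and 1.16-fold. In the value table they were 0.20 (SE 0.073, adjusted p = 0.377) and 0.18 (SE 0.075, adjusted p = 0.417). Neither passed. The probes read separate stretches of the transcript and gave similar log2 ratios in each sample. Both measured the same RNA, so their likeness says nothing about variation between samples.

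Sms, spermine synthase, makes the next polyamine and had 3 probes, all with differences just below 0. The brightest had levels of 3.64 and 3.45 in c-Maf KO replicates 2 and 3 and 3.70, 3.51 and 3.47 in WT replicates 1 to 3. Its log2 ratios were 0.014, 0.13 and -0.072 in c-Maf KO and 0.18, -0.014 and -0.032 in WT, so the groups overlapped throughout. On the 5 arrays the 3 differences were -0.015, -0.095 and -0.070, and in the value table -0.019, -0.092 and -0.067 (adjusted p of 0.696 or more). All 3 turned positive over the 5 arrays without c-Maf KO replicate 3. Srm minus Sms within each sample was 0.00018, -0.0016 and 0.18 in c-Maf KO replicates 1 to 3 and -0.19, -0.17 and -0.11 in WT replicates 1 to 3, at an exact permutation p of 0.1 (two-sided). With Sms at -0.019, this contrast largely repeats the Srm difference of 0.20 and is no separate result.

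Sat1, the acetyltransferase that starts polyamine breakdown, was separated between genotypes by a narrow margin. Its levels were 4.78 and 4.79 in c-Maf KO replicates 2 and 3 and 4.66, 4.77 and 4.63 in WT replicates 1 to 3. The log2 ratios were 0.27, 0.019 and 0.011 in c-Maf KO and -0.12, -0.011 and -0.13 in WT, with c-Maf KO replicate 1 above all others. The difference was 0.10 (SE 0.072, adjusted p = 0.689) over the 5 arrays and 0.19 (SE 0.093, adjusted p = 0.486) in the value table, and 0.10 there without c-Maf KO replicate 1. In all, 5 member probes (Arg1, both Srm probes, 1 Odc1 probe and Sat1) were higher in all 3 c-Maf KO samples than in all 3 WT samples, and 0 were lower. Over all probes these shares were 10.2% higher and 9.26% lower.

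Both arginine transporters were measured with 1 probe each. Slc7a1, the general cationic amino acid transporter, had log2 ratios (replicates 1 to 3) of -0.063, 0.038 and 0.10 in c-Maf KO and 0.031, -0.045 and -0.031 in WT. Its difference was 0.084 (SE 0.069, adjusted p = 0.717) over the 5 arrays and 0.041 (SE 0.068, adjusted p = 0.840) in the value table, with overlapping groups. Without c-Maf KO replicate 3 it was 0.042 over the 5 arrays and 0.0022 in the value table, and over all 6 samples left out in turn it lay between 0.0022 and 0.085 in the value table. Without c-Maf KO replicate 2 it was 0.13 over the 5 arrays. Slc7a2, the transporter that macrophages raise on activation, had levels of -0.34 and 0.65 in c-Maf KO replicates 2 and 3 and -0.42, -0.28 and -0.074 in WT replicates 1 to 3. Its log2 ratios were 0.087, -0.12 and 0.84 in c-Maf KO and -0.23, -0.087 and 0.14 in WT, so c-Maf KO replicate 3 alone stood above the WT range. At intensities of 345 and 774 units in c-Maf KO and 312, 338 and 426 units in WT, the signal was well above background in each. The difference was 0.42 (SE 0.31, adjusted p = 0.695) over the 5 arrays and 0.33 (SE 0.26, adjusted p = 0.638) in the value table. Without c-Maf KO replicate 3 it was -0.076 and 0.040, while omitting c-Maf KO replicate 2 gave 0.91 and 0.52, so this value rests on 1 sample.

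**Figure D3:**
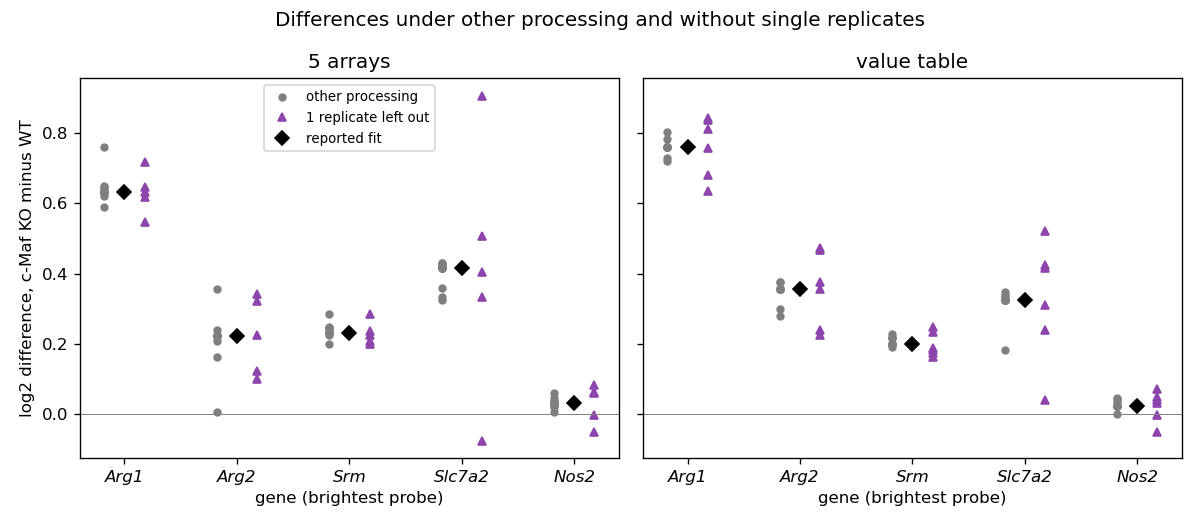
Log2 difference, c-Maf KO minus WT (vertical axis), for the brightest probe of 5 genes under other processing (circles), with 1 replicate left out (triangles) and as reported (diamonds), over the 5 arrays and in the value table. Arg1 stayed between 0.55 and 0.84 in both panels, while Slc7a2 ranged from -0.076 to 0.91 over the 5 arrays with 1 replicate left out.

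Cell types other than macrophages that express Arg1 or could be in such cultures were looked at through marker lists. Hepatocytes are the main Arg1-expressing cells of liver. Of 10 hepatocyte markers, 6 (Alb, Ttr, Apoa1, Ahsg, Fgb and Hnf4a) were not well above background on any array, and neither were the urea cycle genes Cps1 and Otc. The summed level of the 10 markers was 15.7 and 13.2 times the 75th percentile in c-Maf KO replicates 2 and 3 and 15.6, 14.3 and 12.5 times in WT replicates 1 to 3. Afp, Apoa2 and Tat were well above background on all 5 arrays and Serpina1a on 4, and each overlapped between the genotypes. Afp had levels of 2.23 and 1.89 in c-Maf KO and 1.94, 1.98 and 1.86 in WT, and Apoa2 had 3.40 and 3.19 in c-Maf KO and 3.49, 3.30 and 3.08 in WT. Of 11 fibroblast and stromal markers 10 were measured, and Lum was not well above background on any array. All 10 had positive differences in both fits, with a median of 0.89 in the value table, but none passed. Of these, 8 were higher in every c-Maf KO sample of the value table, while Dcn and Thy1 overlapped. Among all kept probes, 10.2% were higher and 9.26% lower without overlap. The summed level of the stromal list was 239 and 264 times the 75th percentile in c-Maf KO and 183, 106 and 120 times in WT. The mean log2 ratio of the 10 was 0.22, 0.082 and 0.53 in c-Maf KO replicates 1 to 3 and -0.10, -0.99 and -0.62 in WT replicates 1 to 3. Like Arg1, this mean was higher in every c-Maf KO sample than in every WT sample. Within c-Maf KO the stromal mean was highest in replicate 3, where Arg1 was lowest by a narrow margin (0.22 against 0.27 in replicate 2). Within WT it was lowest in replicate 2, where Arg1 was highest. The brighter Srm probe had the order of the stromal mean within WT, highest in replicate 1 and lowest in replicate 2, but not within c-Maf KO. Of the 9 measured macrophage markers 1 had a positive difference, and the median was -0.19 in the value table. There 4 (Adgre1, Cd14, Fcgr1 and Mrc1) were lower in every c-Maf KO sample, 1 (Lyz2) was higher, the others overlapped, and none passed. The summed level of the macrophage list was 1126 and 1097 times the 75th percentile in c-Maf KO and 1206, 1233 and 1136 times in WT. Such sums weigh bright genes most, here Csf1r and Cd68, and Sparc in the stromal list. The part of stromal cells, or of fewer macrophages, in the Arg1 and Srm differences was not tested. Of 8 granulocyte and progenitor markers all were measured, 2 had positive differences in the value table, and the median was -0.46. Against that median, Ly6g was higher in every c-Maf KO sample, by 1.55 (adjusted p = 0.115 in limma), while the others overlapped. The summed level of this list was 42.8 and 30.4 times the 75th percentile in c-Maf KO and 38.9, 35.7 and 55.5 times in WT.

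**Figure D4:**
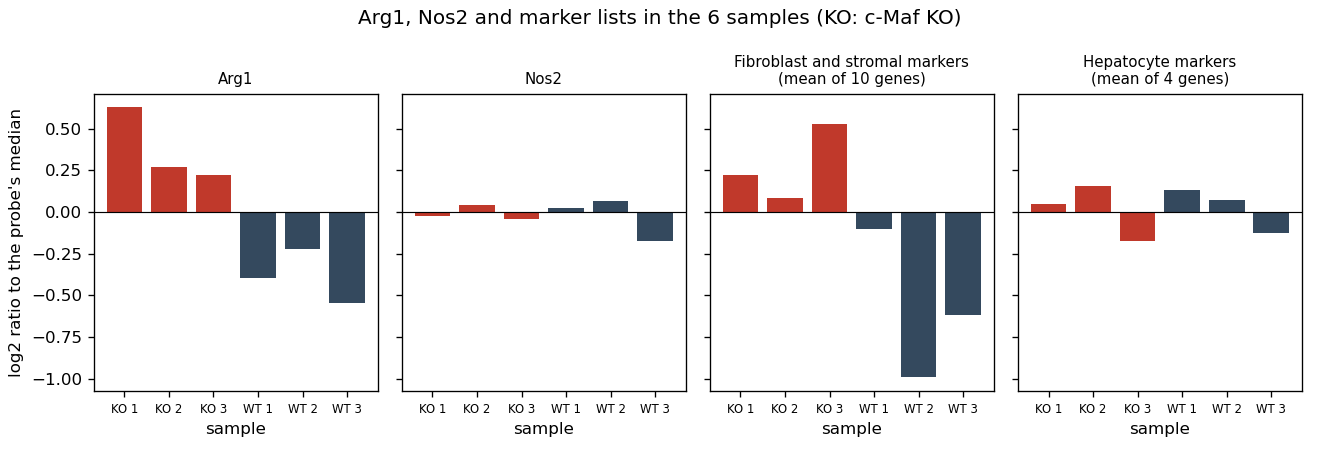
Log2 ratio to the probe's median (vertical axis) in each sample for Arg1 and Nos2, and the mean over the measured fibroblast and stromal markers (10 genes) and hepatocyte markers (4 genes). Arg1 is above 0 in the 3 c-Maf KO samples and below 0 in the 3 WT samples, as is the stromal mean, while Nos2 and the hepatocyte mean overlap between the genotypes.

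The wider pathway was covered by 83 further genes, of which 82 had a probe and 68 were kept. None passed in limma over the 5 arrays or in the value table, in either direction, and 8 and 7 of 68 were under an unadjusted p of 0.05, near the 10.5% and 12.1% of all probes. For the value table, 41 of 68 differences were positive with a median of 0.026, against -0.0038 over all probes. Over the 5 arrays 34 of 68 were positive with a median of -0.00084, against -0.014 over all probes. Positive differences were thus the majority only in the value table. Among the log2 ratios, 7 genes were higher and 4 lower without overlap. Over all probes 10.2% were higher and 9.26% lower in that way, so these counts do not set the list apart. For 1 of those 7, Slc18b1, only WT replicate 1 among the WT arrays was well above background, so it was kept through the c-Maf KO arrays.

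In the urea cycle and arginine supply list, 11 of 17 genes were kept and 5 differences were positive in the value table. Ass1, argininosuccinate synthase, which rebuilds arginine from citrulline, had log2 ratios (replicates 1 to 3) of 0.069, 0.26 and 0.013 in c-Maf KO and -0.13, -0.013 and -0.044 in WT. It differed by 0.18 (adjusted p = 0.473). Gamt, a creatine synthesis enzyme, differed by -0.11 (adjusted p = 0.533), with a second probe at -0.12. The transporter genes Slc7a7 and Slc3a2 measured -0.18 and 0.067, with overlapping groups.

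Ornithine can also be turned to proline, and all 7 genes of that list were kept, 5 with positive differences and a median of 0.14 in the value table. Pycr1, a mitochondrial enzyme of the last step of proline synthesis, had log2 ratios (replicates 1 to 3) of 0.77, 0.11 and 0.37 in c-Maf KO and -0.11, -0.32 and -0.52 in WT. It differed by 0.73 (adjusted p = 0.264). Its levels were low, -3.22 and -2.94 in c-Maf KO replicates 2 and 3 and -3.43, -3.64 and -3.85 in WT replicates 1 to 3. The lowest level well above background was between -4.36 and -4.18 on each array. A second Pycr1 probe was not well above background on any array. Prodh, proline dehydrogenase, which starts proline breakdown, had -0.082, -0.26 and -0.23 in c-Maf KO and 0.10, 0.090 and 0.082 in WT, a difference of -0.28 (adjusted p = 0.253). Neither gene overlapped between genotypes, Pycr1 being higher and Prodh lower in every c-Maf KO sample. Oat, ornithine aminotransferase, which links ornithine to this route, measured 0.016.

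Among other polyamine genes 13 of 19 were kept, and 12 differences were positive in the value table, with a median of 0.10. Slc18b1, a vesicular polyamine transporter, had log2 ratios (replicates 1 to 3) of 0.49, 0.16 and 0.46 in c-Maf KO and -0.16, -1.03 and -1.15 in WT. Since WT replicates 2 and 3 were not well above background, their values give no order and no difference is given. Amd2, a copy of S-adenosylmethionine decarboxylase whose signal cannot be told apart here from that of Amd1, differed by 0.18 at its brightest probe and by -0.030 and 0.18 at the other two. Mat2b, a subunit of the enzyme that makes S-adenosylmethionine, differed by 0.10 (adjusted p = 0.515). All 4 genes of hypusination, the modification of Eif5a that consumes spermidine, lay between -0.029 and 0.067 in the value table. Over the 5 arrays all 4 were below 0, between -0.085 and -0.014.

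In the nitric oxide list 13 of 16 genes were kept, 10 with positive differences and a median of 0.054. Ddah1, which degrades the methylated arginines that inhibit nitric oxide synthases, had log2 ratios (replicates 1 to 3) of 0.32, 0.12 and 0.44 in c-Maf KO and -0.12, -1.20 and -0.61 in WT. It differed by 0.94 (adjusted p = 0.291) and by 0.87 at a second probe, which was not well above background in WT replicate 2. Its order over the 6 samples was that of the stromal mean, with c-Maf KO replicate 3 highest and WT replicate 2 lowest, and the part of stromal cells was not tested. Gch1, the first enzyme for the tetrahydrobiopterin cofactor of nitric oxide synthases, measured 0.044.

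All 20 regulators that are known to act on Arg1 or Nos2 in macrophages were kept, and 6 differences were positive in the value table, with a median of -0.053. Stat6, Cebpb and Pparg, activators of Arg1, measured -0.082, 0.12 and -0.029, and their groups overlapped. The receptor gene Il4ra measured 0.16. Rela, an NF-kB subunit, was lower in every c-Maf KO sample, with log2 ratios (replicates 1 to 3) of -0.030, -0.15 and -0.17 in c-Maf KO and 0.030, 0.065 and 0.091 in WT (difference -0.18, adjusted p = 0.372). Ifngr1, a chain of the interferon-gamma receptor, did the same at -0.12 (adjusted p = 0.451).

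Across all kept probes, the 5 genes whose log2 ratios over the 6 samples lay closest to those of Arg1 were Gsta3, Hmox1, Olfml3, Sirpb1b and Clec4e. Their root mean square distances from Arg1 were 0.0677, 0.0954, 0.0975, 0.0984 and 0.112 log2 units, over 6 samples that include the genotype difference. Gsta3, a glutathione transferase, had log2 ratios (replicates 1 to 3) of 0.78, 0.27 and 0.19 in c-Maf KO and -0.42, -0.19 and -0.49 in WT, with the same order of samples as Arg1. Hmox1, heme oxygenase, had 0.58, 0.22 and 0.13 in c-Maf KO and -0.28, -0.13 and -0.40 in WT. Like Arg1, both were highest in c-Maf KO replicate 1. Such likeness in order and in difference follows from choosing genes by their distance from Arg1. Clec4e, the receptor Mincle, differed by 0.83, Sirpb1b by 0.83 and Olfml3 by 0.72, and none of the 5 passed (adjusted p of 0.120 to 0.251).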

How the data were processed

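Total RNA of 6 samples was hybridised to 1-colour Agilent mouse arrays. Scanner files of 5 arrays hold spot intensities from Agilent Feature Extraction 10.7.3.1, per the file headers, with detrending on, background correction off and surrogates allowed; no file of that kind was used for c-Maf KO replicate 1. The authors' deposited value table holds linear ratios, read here as ratios to each probe's median, because the median over the 6 columns was 1 (on the log2 scale 0, within 4.78e-07). Its scaling is not stated in what was used here, and its column medians on the log2 scale were -0.057, 0.068 and -0.054 for c-Maf KO and 0.024, 0.0070 and -0.0088 for WT.

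Control and outlier spots were left out (134 to 167 outliers of 59305 per array), intensities were divided by the 75th percentile of the array, log2 was taken and spots of a probe were averaged. Probes well above background on at least 2 arrays were kept (28273 of 55668). limma 3.58.1 in R 4.3.3 was run per probe with Benjamini-Hochberg adjustment over all kept probes, and was tested on simulated data; intervals are 95%. The number of arrays limits the precision.

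The text names all members, Maf, up to 6 genes a list that passed or whose groups were separate in the table, and the 5 genes nearest to Arg1; others were named after their values were seen. Some genes that this rule names are not reported here. Members and lists were chosen with earlier results of these data known. Same-numbered samples did not deviate together (correlations of -0.0043, -0.044 and 0.081), so numbers were not used as pairs. The file names of WT replicates 1 and 3 share a tag. This pair had an SD of log2 differences of 0.321, and the remaining WT pairs 0.319 and 0.327. As the variation may be technical, similar spreads cannot show whether the pair shares a source. Each was counted as 1 sample, as labelled, and averaging the pair was among the alternatives. Alternatives covered background correction, scaling, filters, probe summaries, variance models, array weights, a replicate block and replicates left out or averaged.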

Additional observations from a re-analysis of the deposited data

How the results depend on the processing

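Of the values of single member probes under alternatives, 506 kept their sign and stayed on the same side of the threshold, 26 changed sign and 1 passed it. The 1 was Arg1 over the 5 arrays with a variance trend and robust estimation (adjusted p = 0.0443, difference 0.63); over its other alternatives the adjusted p of Arg1 reached 0.569. No sign of Arg1, Arg2, Srm, Sat1 or Slc7a1 turned. Filters, taking the brightest probe of a gene, and the variance trend leave the difference of a probe unchanged, so its sign was fixed there. The same held for the replicate block in the value table and for probe means of genes with 1 probe. The value table was also counted as an alternative of the 5 arrays. Probes called over the 5 arrays numbered 7 (4 higher, 3 lower), and 1 with probes above background on all 5 arrays, 123 with a variance trend and robust estimation, 0 with the replicate block, 2 with WT replicates 1 and 3 averaged, 22 with normexp correction (12 higher, 10 lower) and 2 to 18 with 1 replicate left out. In the value table they numbered 6 (3 higher, 3 lower), and 2 without a filter, 50 with the variance trend, 2 with WT replicates 1 and 3 averaged, 7 with the replicate block (0 higher, 7 lower) and 2 to 31 with 1 replicate left out, the 31 without WT replicate 1. The replicate block changed no member's call.

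The second Oaz1 probe, at -6.92e-05 over the 5 arrays, measured 0.0042 with the replicate block, 0.0051 with normexp, 0.0078 with quantile normalization, 0.015 with detected probes and 0.027 in the value table. The brightest Sms probe measured 0.056 with the replicate block over the 5 arrays, while array weights gave 0.020 and centred columns 0.0021 in the value table. With 1 replicate left out, the ranges over the 5 arrays were -0.049 to 0.082 for Nos2, -0.0072 to 0.19 for the brightest Odc1 probe, -0.075 to 0.079 and -0.036 to 0.036 for Oaz1, -0.11 to 0.079, -0.23 to 0.035 and -0.16 to 0.019 for Sms, and -0.076 to 0.91 for Slc7a2. In the value table they were -0.049 to 0.072 for Nos2 and -0.074 to 0.048 for the brightest Sms probe. Arg2, at 74.4 to 122 intensity units, is the member whose difference depends most on background treatment. The cause of these changes was not tested. With 1 c-Maf KO array left, that array is assumed to vary like the WT arrays.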
